A study of Homo sapiens with 24 samples.

Results

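The 82 collagen, laminin and integrin chain genes of the count table, of its 33113 genes in all, were followed across HCT116 cells and their oxaliplatin-resistant derivative, HCT116 oxpl-R. Members were taken by symbol: 44 collagen chains, 12 laminin chains and 26 integrin subunits. Of these, 58 had a mean of 10 counts or more across all 24 samples (28 collagens, 11 laminins and 19 integrins), 23 were detected at lower counts, and 1 had no count in any sample. Collagen chains join as trimers that form fibrils, the networks of basement membranes or, as in COL17A1, transmembrane anchors. Each laminin is a trimer of an alpha, a beta and a gamma chain and forms the sheet of the basement membrane beneath an epithelium. Integrins are pairs of an alpha and a beta subunit that bind these proteins and couple them to the cytoskeleton. Laminin-332, which holds LAMA3 and LAMB3, is bound by the receptors ITGA3/ITGB1 and ITGA6/ITGB4, and the latter anchors hemidesmosomes together with COL17A1.

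HCT116 is a human colorectal carcinoma line, and both lines carried a doxycycline-inducible adenoviral E1A transgene (genotypes HCT116 TetOn-E1A and HCT116 oxpl-R TetOn-E1A). There were 8 groups of 3 samples, labelled as biological replicates: in each line a control that was left untreated, E1A (0.5 µg/mL doxycycline), oxaliplatin (25 µM for 24 h), and E1A + oxaliplatin, where doxycycline was given 3 h before the drug. HCT116 oxpl-R is 1 line, derived by repeated pulses of oxaliplatin and described in the study as hypotetraploid with a varying chromosome number. No sample had doxycycline without the transgene, so that doxycycline and E1A cannot be told apart, and E1A itself was not analysed here. Oxaliplatin is a platinum compound that crosslinks DNA.

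The samples held between 24838095 and 37927720 counts, of which the members took 0.240% to 0.754%. The epithelial markers KRT8, KRT18, KRT19, EPCAM and CDH1 were abundant in all groups. Of the same list of 15, KRT20, GPA33, LGALS4 and CDX1 were low, with group means of at most 35.7, 45, 12 and 2.67 counts. Mean counts of PTPRC and CDH5, which define leukocytes and endothelium, were at most 5.67 and 4.67 in any group. Some other leukocyte and endothelial markers were higher. Group means ran from 165 to 747 for CORO1A (leukocytes) and from 2537 to 3714 for EGFL7 (endothelium). In 9 of 24 samples the closest library by Pearson's r of log2(CPM + 1), over genes with 10 counts or more on average, belonged to another group. Replicate 3 of HCT116 oxaliplatin and replicate 1 of HCT116 E1A + oxaliplatin were closest to each other (r = 0.985, against at most 0.968 and 0.971 with their own groups), and replicate 3 of HCT116 oxpl-R oxaliplatin was closest to replicate 3 of HCT116 oxpl-R control. Counts of called members that rest on these libraries are given with and without them.

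Below are the 250 bases before the RefSeq transcription start (GRCh38.p14) for those members upregulated by oxaliplatin in both lines that matched the promoter table, followed by COL4A3 and ITGB7, which were higher in HCT116 oxpl-R cells under every treatment. ITGA3 and ITGB4 had no entry. Capitals mark TGANTCA, the AP-1 motif. The regions are chr18:23872770-23873019 on the + strand for LAMA3, chr1:209652426-209652675 on the − strand for LAMB3, chr10:104085881-104086130 on the − strand for COL17A1, chr1:31704018-31704267 on the − strand for COL16A1, chr2:227164374-227164623 on the + strand for COL4A3 and chr12:53207252-53207501 on the − strand for ITGB7.
LAMA3: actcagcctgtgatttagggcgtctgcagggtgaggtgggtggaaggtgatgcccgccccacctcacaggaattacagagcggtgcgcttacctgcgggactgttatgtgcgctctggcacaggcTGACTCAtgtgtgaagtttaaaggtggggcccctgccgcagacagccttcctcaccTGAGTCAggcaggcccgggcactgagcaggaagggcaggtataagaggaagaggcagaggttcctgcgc
LAMB3: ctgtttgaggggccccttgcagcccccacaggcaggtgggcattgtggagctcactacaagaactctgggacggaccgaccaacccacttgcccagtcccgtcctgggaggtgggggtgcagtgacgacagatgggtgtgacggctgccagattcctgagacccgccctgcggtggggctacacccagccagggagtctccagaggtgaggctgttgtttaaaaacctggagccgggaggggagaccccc
COL17A1: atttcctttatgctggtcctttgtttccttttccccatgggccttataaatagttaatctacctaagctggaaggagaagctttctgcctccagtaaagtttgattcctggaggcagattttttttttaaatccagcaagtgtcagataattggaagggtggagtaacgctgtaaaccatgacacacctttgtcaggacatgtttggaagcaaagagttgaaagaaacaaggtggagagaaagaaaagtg
COL16A1: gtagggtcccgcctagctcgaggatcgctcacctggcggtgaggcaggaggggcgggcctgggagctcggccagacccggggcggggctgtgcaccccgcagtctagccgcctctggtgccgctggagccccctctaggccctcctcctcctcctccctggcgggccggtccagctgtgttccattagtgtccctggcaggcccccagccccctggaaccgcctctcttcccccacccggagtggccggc
COL4A3: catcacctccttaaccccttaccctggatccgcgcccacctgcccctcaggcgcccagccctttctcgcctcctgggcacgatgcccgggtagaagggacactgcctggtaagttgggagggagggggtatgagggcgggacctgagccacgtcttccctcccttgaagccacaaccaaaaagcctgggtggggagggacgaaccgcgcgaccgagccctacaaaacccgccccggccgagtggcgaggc
ITGB7: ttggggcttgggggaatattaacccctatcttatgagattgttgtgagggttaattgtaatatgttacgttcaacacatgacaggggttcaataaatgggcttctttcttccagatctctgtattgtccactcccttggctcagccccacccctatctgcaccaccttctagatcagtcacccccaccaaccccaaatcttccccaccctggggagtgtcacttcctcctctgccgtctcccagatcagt

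The LAMA3 window lies before a start inside the gene, 183567 bases downstream of the GENCODE gene start, and holds AP-1 motifs 125 and 69 bases before this start. LAMB3 has 3 starts in the table, of which the one nearest the GENCODE gene start is shown, and another holds an AP-1 motif. The motif occurred in 1 of these 6 windows, in 3 of 77 starts of the 58 members in the table, and in 6.59% of all 34943 windows of that length. Both strands were also searched for the GC box GGGCGG (41 of 77 member starts, 42.5% of all windows), CCAAT (17 of 77, 11194 of all windows) and TATAAA (10 of 77, 10.8%), none of which contains TGANTCA or lies within it. COL17A1 was the window shown with a TATAAA and a CCAAT match, COL16A1 and COL4A3 each held 2 GC boxes, and ITGB7 held none of the 4 motifs. A match is a description of the letters and not a binding site.

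In untreated HCT116 cells, levels were compared between genes as CPM (counts scaled to the library total) per kilobase of the canonical GENCODE transcript (n = 3, ± SD). Among integrins the highest were ITGB1 (the common beta partner) at 104 ± 23.1, ITGA3 at 77.1 ± 3.15 and ITGB4 at 54.6 ± 1.82. In oxpl-R cells the per-length level of ITGA3 was 151 ± 7.79 and that of ITGB1 was 93.8 ± 55.03. In both lines the difference between ITGB1 and ITGA3 was only slightly larger than the SD of ITGB1. Among laminins, LAMA5 (15.6 ± 0.506), LAMB3 (15.3 ± 0.442), LAMC1 (14.2 ± 0.908) and LAMB2 (13.7 ± 0.4097) were close to one another in HCT116 cells. In oxpl-R cells LAMB3 led at 40.03 ± 3.62 per length, above LAMB2 at 27.4 ± 2.64 and LAMA5 at 26.3 ± 4.18. LAMA3, the partner alpha chain of LAMB3, was at 0.909 ± 0.204 per length in HCT116 cells, a value that depends on the transcript whose length is used.

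Among collagens, COL6A2 (35.7 ± 0.872 per length) and COL6A1 (31.3 ± 1.61) were the highest in untreated HCT116 cells, whereas COL6A3, the long chain that completes the collagen VI trimer, had 17.6, 18.7 and 14.6 normalized counts (counts scaled by TMM to the mean library of the 24 samples). COL9A3 (28.7 ± 1.85 per length) and COL18A1 (19.3 ± 1.06), the basement membrane collagen whose C-terminal fragment is endostatin, came next. Of the 6 collagen IV chains, which are encoded head to head in pairs, COL4A5 was the most abundant, at 1015, 1129.5 and 1135 normalized counts. COL4A3 and COL4A4 start 171 bases apart on opposite strands of chromosome 2, and COL4A5 and COL4A6 start 341 bases apart on chromosome X. The chains of the ubiquitous network were low: COL4A1 had 18.6, 7.86 and 16.7 normalized counts in HCT116 control samples.

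**Figure D1:**
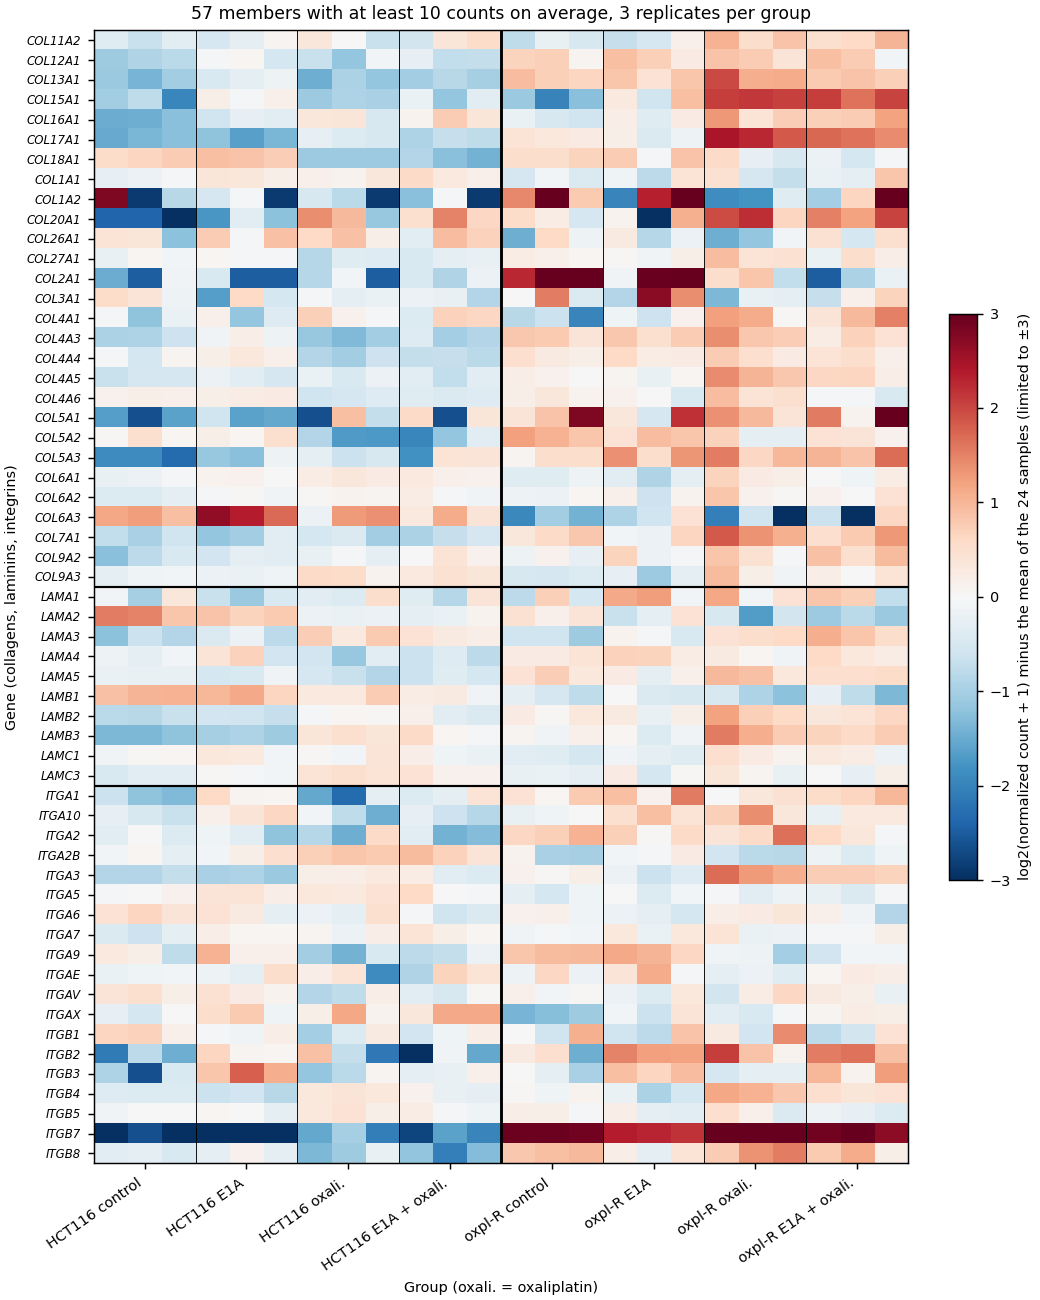
Heat map of 57 of the 58 members with at least 10 counts on average (rows) in the 24 samples (columns, 3 per group); colour gives log2(normalized count + 1) minus the gene's mean over all samples, limited to ±3. ITGB7 is below its mean in all 12 HCT116 samples and above it in all 12 HCT116 oxpl-R samples, and COL1A2 and COL2A1 differ widely between replicates of HCT116 oxpl-R groups.

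Members differed widely between the untreated lines. By edgeR's quasi-likelihood test, with p-values adjusted by Benjamini-Hochberg across every gene tested (called: adjusted p below 0.05), 24 of 73 tested members were higher and 8 were lower in HCT116 oxpl-R than in HCT116 control cells. Over all 16715 genes tested, 14.1% were higher and 14.2% lower. Among the 58 members with at least 10 counts on average, 24 were higher and 7 lower, against 20.1% and 21.1% of all 11096 genes at that level. The median log2FC of the tested members was 0.35, beside 0.08 for all genes. By family, 13 collagens, 5 laminins and 6 integrins were higher, and 3, 3 and 2 were lower. Of the 32 calls, 19 held in every alternative setting that tested them (up to 12), and |log2FC| was above 1 for 18.

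ITGB7, the beta subunit that pairs with ITGA4 or ITGAE in integrins best known from lymphocytes (chr12:53191323-53207282, − strand), had the largest difference among called members. It had 3.92, 7.86 and 2.09 normalized counts in the HCT116 control samples and 424, 419 and 409 in the oxpl-R control samples (log2FC 6.45 ± 0.29 (SE), adjusted p = 8.7e-09). The groups were far apart and the oxpl-R replicates nearly equal. In oxaliplatin-treated cells it had 17.8, 26.5 and 12.01 in HCT116 and 799, 633 and 435 in oxpl-R samples (log2FC 4.96 ± 0.40 (SE), adjusted p = 6.6e-06). Its partner ITGAE had 496, 519 and 543 and 513, 873 and 509 normalized counts in the 2 control groups and was not called (log2FC 0.29 ± 0.20 (SE), adjusted p = 0.316). Leukocyte markers summed to 15.6 to 17.8 CPM in HCT116 control and to 8.85 to 9.90 in oxpl-R control samples. Within the list, mean counts went from 305 to 165 for CORO1A and from 1.33 to 6 for LAPTM5. Of the 12 leukocyte markers PTPRC, CD3E, CD3D, CD2 and MS4A1 were at 0 in HCT116 control and CD3D and MS4A1 at 0 in oxpl-R control samples. The part of these markers in the difference of ITGB7 was not tested.

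The laminin beta chains shifted in opposite directions. LAMB1 (chr7:107923799-108003213, − strand), the beta chain of laminins such as laminin-111 and laminin-511, had 1365, 1493 and 1517 normalized counts in HCT116 control and 613, 518 and 433 in oxpl-R control samples (log2FC -1.48 ± 0.15 (SE), adjusted p = 9.9e-06). LAMB2 (chr3:49121114-49133118, − strand), which takes its place in laminin-521, had 2294, 2263 and 2520.0 and 4722, 4101 and 4962 (log2FC 0.97 ± 0.11 (SE), adjusted p = 2.9e-05). For neither gene did the groups overlap. The ratio of LAMB2 to LAMB1 counts per length was 1.67, 1.504 and 1.65 in HCT116 control, 4.25, 4.59 and 3.24 in HCT116 oxaliplatin, 7.65, 7.86 and 11.4 in oxpl-R control and 17.3, 16.8 and 19.1 in oxpl-R oxaliplatin samples. In E1A samples it was 1.78, 1.605 and 2.14 in HCT116 and 6.33, 6.201 and 8.48 in oxpl-R, and in E1A + oxaliplatin samples it was 5.12, 3.61 and 4.24 and 8.03, 12.1 and 20.99. Each oxpl-R sample thus had a higher ratio than every HCT116 sample of the same treatment.

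Of the other laminin chains, LAMB3 was higher in untreated oxpl-R cells (1799.6, 1793 and 1975 against 4854, 4258 and 5093 normalized counts, log2FC 1.36 ± 0.11 (SE), adjusted p = 1.4e-06). LAMA5, the alpha chain of laminin-511 and laminin-521, was also higher (5416, 5337 and 5368 against 8424, 10427 and 7712, log2FC 0.73 ± 0.12 (SE), adjusted p = 6.9e-04). LAMA2, the alpha chain of muscle laminin, was lower (232, 226 and 143 against 110.3, 88.8 and 104, log2FC -0.98 ± 0.22 (SE), adjusted p = 0.00408). The groups of these 3 genes did not overlap. LAMC1 was lower (log2FC -0.40 ± 0.11, adjusted p = 0.0134), and LAMA4 was higher (adjusted p = 0.0345). These 2 calls were lost when control replicate 2 of HCT116 was left out (adjusted p up to 0.0724 and 0.12 over the samples left out in turn). In all, the call of LAMC1 was lost in 3 of 12 alternative settings. That of LAMA4 was lost in 6, among them DESeq2 and the replicate number as a block.

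Of the 37 collagens tested, 13 were higher and 3 lower in untreated oxpl-R cells. COL17A1 (chr10:104031286-104085880, − strand), the transmembrane collagen of hemidesmosomes, had 221, 244 and 265 normalized counts in HCT116 control and 838, 793 and 749 in oxpl-R control samples (log2FC 1.71 ± 0.14 (SE), adjusted p = 2.1e-06). COL7A1, which forms anchoring fibrils, had 119, 101 and 132 and 252, 298 and 349 (log2FC 1.36 ± 0.18 (SE), adjusted p = 1.1e-04). In both genes the lowest oxpl-R sample lay above the highest HCT116 sample. COL13A1, a transmembrane collagen of adhesion sites, had 120.4, 98.3 and 126 and 495, 429 and 413 (log2FC 1.96 ± 0.17 (SE), adjusted p = 2.5e-06). COL12A1, a fibril-associated collagen, had 592, 671 and 709.9 and 1994, 2058 and 1324 (log2FC 1.46 ± 0.17 (SE), adjusted p = 3.4e-05). COL4A3, a chain of the restricted collagen IV network, had 53.9, 55.1 and 68.9 and 185, 183 and 138 (log2FC 1.52 ± 0.21 (SE), adjusted p = 1.4e-04). None of these groups overlapped. COL4A5, from the same network, was higher by less (log2FC 0.68 ± 0.11 (SE), adjusted p = 6.7e-04). COL4A4, which starts beside COL4A3, had log2FC 0.48 ± 0.18 and did not pass the test (adjusted p = 0.0656). COL5A3 was also higher (log2FC 2.54, adjusted p = 4.8e-04), a call that held in each of the 12 alternative settings.

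Among integrins, ITGA3, the laminin-332 receptor chain, had 10964, 10925 and 12311 normalized counts in HCT116 control and 21992, 20462 and 22652 in oxpl-R control samples (log2FC 0.94 ± 0.11 (SE), adjusted p = 3.2e-05). ITGA2, a collagen receptor chain, had 1387, 1726 and 1304 and 2686, 2837 and 3590.1 (log2FC 1.05 ± 0.14 (SE), adjusted p = 1.3e-04). ITGB8, which activates latent TGF-beta with ITGAV, had 57.8, 59.97 and 53.2 and 130.3, 138 and 146 (log2FC 1.28 ± 0.20 (SE), adjusted p = 3.1e-04). All 3 were without overlap between the lines. ITGA6, the partner of ITGB4, was lower (log2FC -0.44 ± 0.12, adjusted p = 0.0163) and ITGB4 higher (log2FC 0.42 ± 0.11, adjusted p = 0.0097). The call of ITGA6 was lost without replicate 2 of HCT116 control. ITGA5, the fibronectin receptor chain, and COL9A3 were lower (log2FC -0.34 and -0.30), and each lost its call in 11 of 12 alternative settings.

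Some called collagens were scarce. COL2A1, the cartilage fibril collagen, had 0.979, 0 and 4.18 normalized counts in HCT116 control and 25.8, 130.2 and 49.5 in oxpl-R control samples (log2FC 5.27 ± 0.80 (SE), adjusted p = 3.0e-04). COL5A1 had 0.979, 0 and 1.04 and 7.04, 10.1 and 42.1 (adjusted p = 0.00488), and no fold is given, since HCT116 control samples held 2 counts in all. The oxpl-R replicates of these genes were far apart. COL6A3 was lower, with 1.17, 3.03 and 2.11 in oxpl-R control samples (log2FC -2.91 ± 0.73 (SE), adjusted p = 0.00855). COL1A2, a chain of collagen I, had 49.9, 0 and 3.13 and 18.8, 245 and 11.6 and did not pass the test (adjusted p = 0.145), while COL1A1, its partner, had 555, 584 and 641 and 465, 621 and 487 (adjusted p = 0.455). In the other oxpl-R groups COL1A2 had 0.847, 35.9 and 93.1 with E1A, 1.003, 1.11 and 4.69 with oxaliplatin and 2.57, 10.4 and 381 with E1A + oxaliplatin, so that its replicates were far apart in 3 of the 4 groups. Of the 12 fibroblast markers, PDGFRA, FAP, DCN, DPT, POSTN, MFAP5, CXCL12 and PDPN had no count in HCT116 control samples, and PDGFRA, FAP, LUM and PDPN had none in oxpl-R control samples. FBLN1, also on the list, was abundant, with mean counts of 1451 and 1421. ACTA2 had mean counts of 44.7 and 138, and MFAP5 of 0 and 2.67. The list summed to 46.8 to 52.8 CPM in HCT116 control and 50.8 to 63.5 in oxpl-R control samples.

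With both lines on oxaliplatin, 18 of 75 tested members were higher and 5 lower in oxpl-R cells (9.77% and 10.9% of all genes). With both on E1A, 14 of 79 were higher and 3 lower (10.6% and 7.1% of all genes), and with both on E1A + oxaliplatin, 19 of 74 were higher and 2 lower (10.1% and 8.39%). These 4 comparisons share no samples. COL4A3, COL7A1, COL12A1, COL13A1, COL17A1, LAMB2, ITGA3 and ITGB7 were higher in all 4, and LAMB1 was lower in all 4, out of 32 members higher and 10 lower in any. The share of all genes called in all 4 was not taken, so that these calls do not set the members apart. Calls of COL12A1, COL13A1, COL17A1 and ITGB7 held in every alternative setting of all 4 comparisons. LAMB2 lost its call on oxaliplatin when any HCT116 oxaliplatin replicate was left out. On E1A + oxaliplatin LAMB2 lost it in 7 of 12 settings, among them RLE scaling and DESeq2, LAMB1 in 4 and ITGA3 in 2. On E1A, COL4A3 and COL7A1 lost their calls in 3 settings each and ITGA3 in 1. On oxaliplatin, 19 members were called without replicate 3 of HCT116 oxaliplatin and 24 without replicate 3 of oxpl-R oxaliplatin, and on E1A + oxaliplatin 24 without replicate 1 of HCT116 E1A + oxaliplatin. The E1A comparison counted 10 members without replicate 1 of HCT116 E1A and 26 without replicate 3 of HCT116 oxpl-R E1A.

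**Figure D2:**
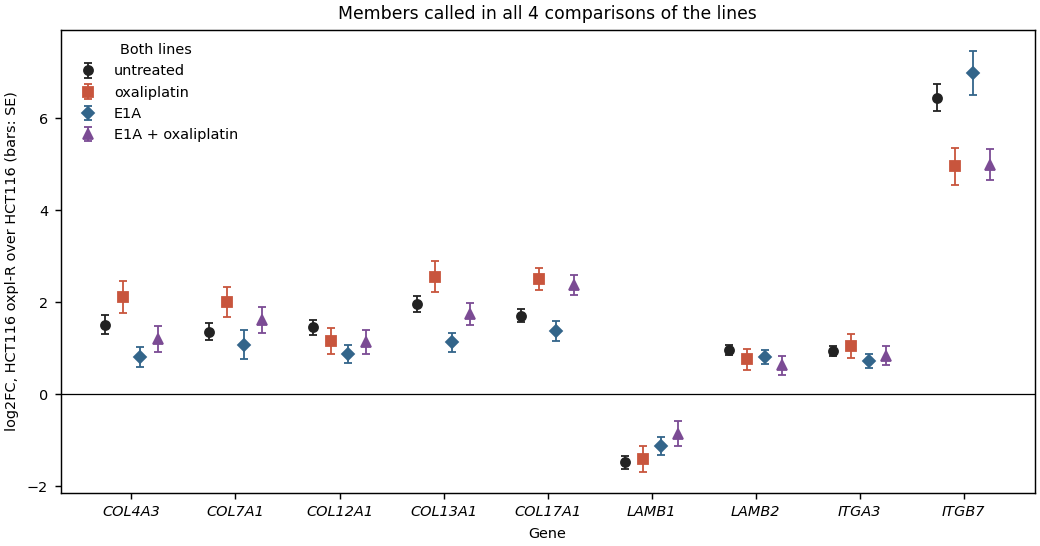
log2FC of HCT116 oxpl-R over HCT116 cells (y axis; bars are SE from edgeR's fit) for the 9 members called in all 4 comparisons (x axis), by treatment of both lines. ITGB7 lies between 4.96 and 6.98, the 7 other higher members between 0.64 and 2.56, and LAMB1 below 0 in each comparison.

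For the 9 members called in all 4 comparisons of the lines, the median log2FC of their chromosome was also taken between the untreated lines. Over genes with at least 10 counts it was 0.42 on chromosome 3 (LAMB2 and COL7A1), 0.04 on chromosome 12 (ITGB7) and -0.25 on chromosome 10 (COL13A1 and COL17A1). It was 0.10 on chromosome 7 (LAMB1), -0.28 on chromosome 2 (COL4A3), -0.16 on chromosome 17 (ITGA3) and -0.25 on chromosome 6 (COL12A1). The part of chromosome copy number in the members' differences was not tested.

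Oxaliplatin upregulated LAMA3, LAMB3 and the receptor subunits ITGA3 and ITGB4 in both lines. In HCT116 cells 18 of 74 tested members rose and 3 fell (13.1% and 10.2% of all genes), and in oxpl-R cells 10 of 74 rose and 2 fell (2.02% and 2.1% of all genes). The median log2FC of the members was 0.35 in both lines, beside 0.02 for all genes in HCT116 and -0.0043 in oxpl-R cells. COL16A1, COL17A1, LAMA3, LAMB3, ITGA3 and ITGB4 were among the 7 members called up in both lines. These 7 made 38.9% of the members that rose in HCT116 and 70.0% of those that rose in oxpl-R cells. The same overlap was not taken over all genes, so that neither share sets the members apart from other genes. No member fell in both.

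LAMB3, the beta chain of laminin-332, rose from 1799.6, 1793 and 1975 to 5904, 6407 and 5929 normalized counts in HCT116 cells (log2FC 1.79 ± 0.12 (SE), adjusted p = 9.9e-05). In oxpl-R cells it rose from 4854, 4258 and 5093 to 13552, 9700.3 and 7800.2 (log2FC 1.13 ± 0.23 (SE), adjusted p = 0.0135). In each line every treated sample exceeded every control sample. LAMA3, whose upstream window shown above holds 2 AP-1 motifs, rose from 230.1, 349 and 296 to 914, 668 and 940.4 in HCT116 cells (log2FC 1.60 ± 0.22 (SE), adjusted p = 0.00146). In oxpl-R cells it rose from 357, 357 and 260.1 to 739, 789 and 827 (log2FC 1.28 ± 0.22 (SE), adjusted p = 0.00477). Here too the groups were apart.

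COL17A1 rose from 221, 244 and 265 to 534, 474 and 452 normalized counts in HCT116 cells (log2FC 1.08 ± 0.18 (SE), adjusted p = 0.00333). In oxpl-R cells it rose from 838, 793 and 749 to 3479, 3066 and 2272 (log2FC 1.90 ± 0.20 (SE), adjusted p = 1.6e-04). The treated oxpl-R samples held the highest COL17A1 values of the 24. ITGA3 (chr17:50055968-50090481, + strand) rose from 10964, 10925 and 12311 to 22725, 23018 and 24648 in HCT116 cells (log2FC 1.12 ± 0.13 (SE), adjusted p = 8.1e-04) and from 21992, 20462 and 22652 to 63998, 48554 and 42942 in oxpl-R cells (log2FC 1.26 ± 0.23 (SE), adjusted p = 0.00644). ITGB4, the hemidesmosomal beta chain, rose from 9825, 9639 and 9691 to 16066, 16751 and 16121 in HCT116 cells (log2FC 0.82 ± 0.12 (SE), adjusted p = 0.00165) and from 13164, 11742 and 13820.2 to 28902, 26562 and 22741 in oxpl-R cells (log2FC 1.02 ± 0.20 (SE), adjusted p = 0.0124). None of these groups overlapped. ITGA6, with which ITGB4 pairs, had 2739.6, 3196 and 2667 in control and 1805, 1684 and 2819 in oxaliplatin-treated HCT116 samples and did not pass the test in either line (adjusted p = 0.229 in HCT116 and 0.603 in oxpl-R cells). COL16A1, a fibril-associated collagen, rose in HCT116 (log2FC 1.61 ± 0.28 (SE), adjusted p = 0.00349) and in oxpl-R cells (log2FC 1.29 ± 0.28 (SE), adjusted p = 0.0201).

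In HCT116 cells the calls of these 6 named members held in each of the 12 alternative settings. In oxpl-R cells those of COL17A1 and ITGA3 did, whereas COL16A1 lost its call without control replicate 2 or 3, and ITGB4 and LAMB3 without control replicate 1 or 2, with adjusted p up to 0.0643, 0.0769 and 0.0611. On the length-scaled table COL16A1, ITGB4 and LAMA3 lost their calls. The summed level of the 15 epithelial markers was 6886 to 7389.6 CPM in HCT116 control and 11934 to 12262 in HCT116 oxaliplatin samples, and 8182 to 8974 in oxpl-R control and 11020 to 18778 in oxpl-R oxaliplatin samples. KRT8, KRT18 and KRT19 made up most of that sum, whereas mean counts went from 10111 to 9481 and from 7851 to 6526 for EPCAM, and from 6997 to 4668 and from 5212 to 3289 for ESRP1, in HCT116 and oxpl-R cells. The 12 leukocyte markers summed to between 15.6 and 17.8 CPM in HCT116 control and between 31.8 and 32.9 in HCT116 oxaliplatin samples, and to between 8.85 and 9.90 and between 8.96 and 10.3 in those of oxpl-R, with PTPRC at 0 in both oxaliplatin groups. The 12 fibroblast markers summed to between 46.8 and 52.8 CPM in HCT116 control and between 71.3 and 83.9 in HCT116 oxaliplatin samples, and to between 50.8 and 63.5 and between 43.5 and 131 in those of oxpl-R. Of these, FBLN1 went from a mean of 1451 to 1920 counts and from 1421 to 883, and ACTA2 from 44.7 to 389 and from 138 to 1224. FAP, DPT and PDPN were at 0 in both oxaliplatin groups. The part of these markers in the results was not tested.

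**Figure D3:**
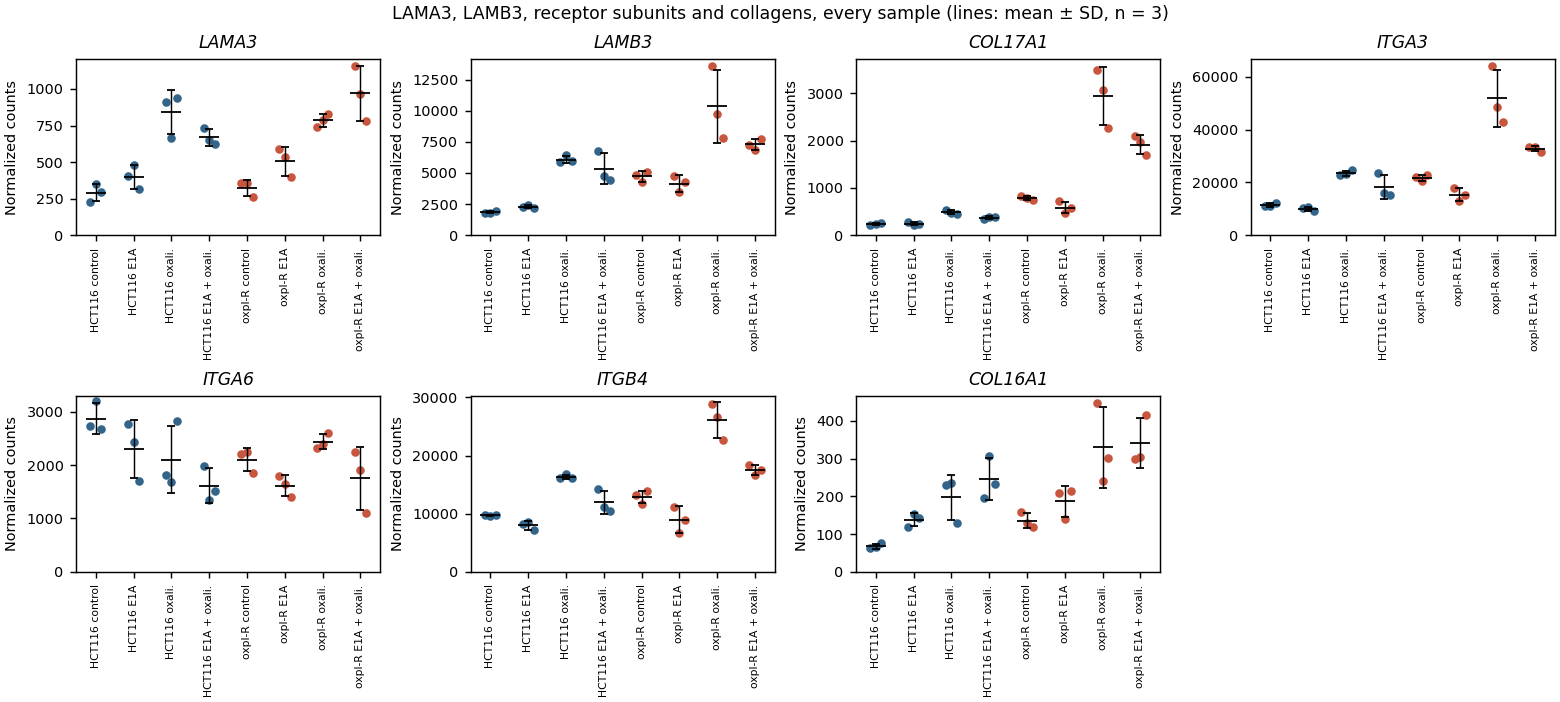
Normalized counts (y axis) of LAMA3, LAMB3, ITGA3, ITGA6, ITGB4, COL17A1 and COL16A1 in every sample (points), by group (x axis; blue HCT116, red HCT116 oxpl-R), with mean ± SD (n = 3). Oxaliplatin-treated samples lie above untreated samples of the same line in each panel but that of ITGA6.

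Other members responded in HCT116 cells. LAMC3 (log2FC 0.87 ± 0.15 (SE), adjusted p = 0.00329) and LAMB2 (log2FC 0.86 ± 0.12 (SE), adjusted p = 0.00171) rose, both without overlap of the groups. COL6A1 and COL6A2, neighbours on chromosome 21, rose by less (log2FC 0.49 ± 0.12 and 0.53 ± 0.12), and both calls were lost without replicate 1 or 2 of HCT116 control. COL18A1 (chr21:45405165-45513720, + strand) fell from 2946, 3115 and 3383 to 941, 936 and 933 normalized counts (log2FC -1.67 ± 0.13 (SE), adjusted p = 2.2e-04). Its 3 treated samples were nearly equal. LAMA2 fell from 232, 226 and 143 to 70.3, 68.99 and 70.2 (log2FC -1.44 ± 0.25 (SE), adjusted p = 0.00355) and COL5A2, a regulatory fibril chain, from 51.9, 71.8 and 53.2 to 27.3, 14.9 and 14.8 (log2FC -1.56 ± 0.36 (SE), adjusted p = 0.013), and the call of COL5A2 was lost without replicate 2 of HCT116 control and with the replicate number as a block. The remaining called members, COL5A3, COL9A3, COL20A1, ITGA2B, ITGA5, ITGB5 and ITGB7, rose, and each lost its call in 2 to 8 of the alternative settings. The HCT116 count of 21 members became 36 without replicate 3 of HCT116 oxaliplatin, and 12 and 11 without replicates 1 and 2 of HCT116 control.

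COL15A1 (chr9:98943179-99070792, + strand), a basement membrane collagen related to COL18A1, was the 1 member of 75 whose response to oxaliplatin differed between the lines by the interaction term (2.44% of all genes passed). It had 8.81, 10.8 and 4.18 normalized counts in HCT116 control and 8.39, 9.55 and 9.24 in HCT116 oxaliplatin samples (log2FC 0.26 ± 0.63, adjusted p = 0.783). In oxpl-R cells it rose from 8.22, 4.04 and 7.37 to 84.3, 86.7 and 82.1 (log2FC 3.68 ± 0.42 (SE), adjusted p = 2.2e-04). The 3 treated oxpl-R samples stood about equally far above the others. The difference of the responses was 3.43 ± 0.67 (log2, adjusted p = 0.011), and it lost its call without replicate 2 of HCT116 control (adjusted p = 0.0532). COL18A1 had 2864, 2895 and 3176 in oxpl-R control and 2972, 1671 and 1427 in oxpl-R oxaliplatin samples (log2FC -0.55 ± 0.25, adjusted p = 0.315). Its difference between the lines was 1.14 ± 0.31 (log2) with adjusted p = 0.055. DESeq2 called the interaction for 5 members, and edgeR called 6 without replicate 3 of HCT116 oxaliplatin, 3 without replicate 1 or 3 of oxpl-R oxaliplatin, 2 without its replicate 2, and 0 without replicate 2 of HCT116 control.

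In oxpl-R cells COL4A5 rose from 1845, 1751 and 1622 to 4299, 3249 and 2812 normalized counts (log2FC 1.00 ± 0.20 (SE), adjusted p = 0.0133), and the call was lost without control replicate 1. COL11A2, a chain of cartilage fibrils, rose from 138, 201 and 168 to 489.7, 339 and 429 (log2FC 1.32 ± 0.25 (SE), adjusted p = 0.00917), and lost its call without the same sample. COL2A1 fell from 25.8, 130.2 and 49.5 to 7.02, 8.89 and 2.35 (log2FC -3.44 ± 0.65 (SE), adjusted p = 0.00865). The treated samples of COL2A1 lay below all controls. COL1A2 fell from 18.8, 245 and 11.6 to 1.003, 1.11 and 4.69 (log2FC -5.26 ± 1.15 (SE), adjusted p = 0.0206). This call was lost in 5 of 12 alternative settings, and DESeq2 gave no adjusted p for it. Among the 5 were leaving out control replicate 2, where the highest value stood, and treated replicate 1. The oxpl-R count of 12 members became 19 without replicate 3 of oxpl-R oxaliplatin, and 7 without replicate 1 or 2 of oxpl-R control.

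**Figure D4:**
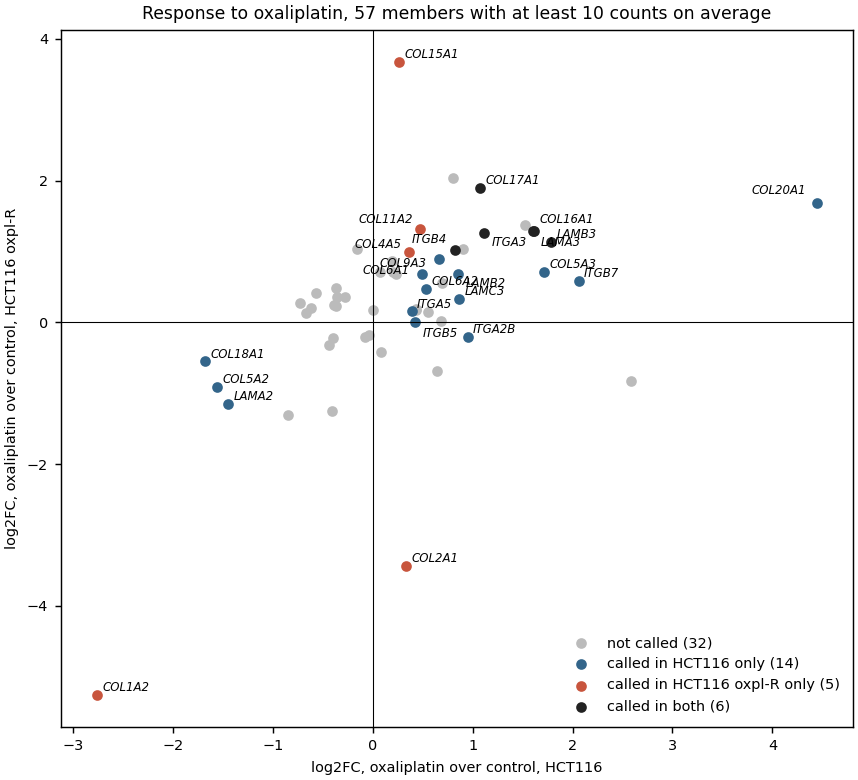
Response to oxaliplatin (log2FC, treated over control) of 57 of the 58 members with at least 10 counts on average, in HCT116 (x axis) and HCT116 oxpl-R cells (y axis). The 6 plotted members called in both lines lie in the upper right part, COL15A1 is high on the y axis alone, and COL18A1, COL5A2 and LAMA2 lie left of 0.

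Oxaliplatin was also compared in cells given doxycycline, E1A + oxaliplatin against E1A. In HCT116 cells 6 of 80 members rose and 7 fell (5.2% and 4.81% of all genes). COL16A1, COL9A3, LAMA3, LAMB3, ITGA3 and ITGB4 rose, all of which had also risen without E1A. LAMB3 went from 2287, 2412 and 2188 to 6765, 4786 and 4468 normalized counts (log2FC 1.31 ± 0.20 (SE), adjusted p = 0.00102) and COL18A1 fell from 3749, 3616 and 3346 to 1092, 839 and 749.8 (log2FC -1.91 ± 0.20 (SE), adjusted p = 4.1e-05). These 2 calls held in each alternative setting, and those of COL16A1 and LAMA3 were lost in 5. The others that fell were COL4A4, COL6A3, ITGB3, ITGB8, LAMA2 and LAMB1. The count of 13 became 31 without replicate 1 of HCT116 E1A + oxaliplatin, 4 without its replicate 2, 2 without replicate 1 or 2 of HCT116 E1A, and 6 without its replicate 3.

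In oxpl-R cells COL17A1, LAMB3, ITGA3 and ITGB4 rose and COL2A1 fell, 5 of 79 members (2.06% of all genes). COL17A1 went from 713, 473 and 567 to 2091, 1967 and 1687 normalized counts (log2FC 1.68 ± 0.21 (SE), adjusted p = 6.9e-04) and ITGA3 from 17781, 12915 and 15318 to 33398, 33272 and 31659 (log2FC 1.06 ± 0.19 (SE), adjusted p = 0.00668). Neither pair of groups overlapped. COL15A1 had 23.7, 12.3 and 36.3 and 83.2, 61.6 and 81.01 and did not pass the test here (log2FC 1.58 ± 0.41 (SE), adjusted p = 0.0628). Same-numbered samples of these 2 groups deviated together, and with the replicate number as a block 16 members were called. The count of 5 became 3 without any of the 3 E1A + oxaliplatin samples, 8 without replicate 1 of oxpl-R E1A and 15 without its replicate 3. LAMB3, ITGA3 and ITGB4 thus passed the test in all 4 comparisons of oxaliplatin. With E1A, however, the calls of ITGB4 and LAMB3 in oxpl-R cells were lost without any of the 3 E1A + oxaliplatin samples, and those of ITGA3 and ITGB4 in HCT116 cells without any of the 3 E1A samples (adjusted p up to 0.0767, 0.117, 0.0643 and 0.170).

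**Figure D5:**
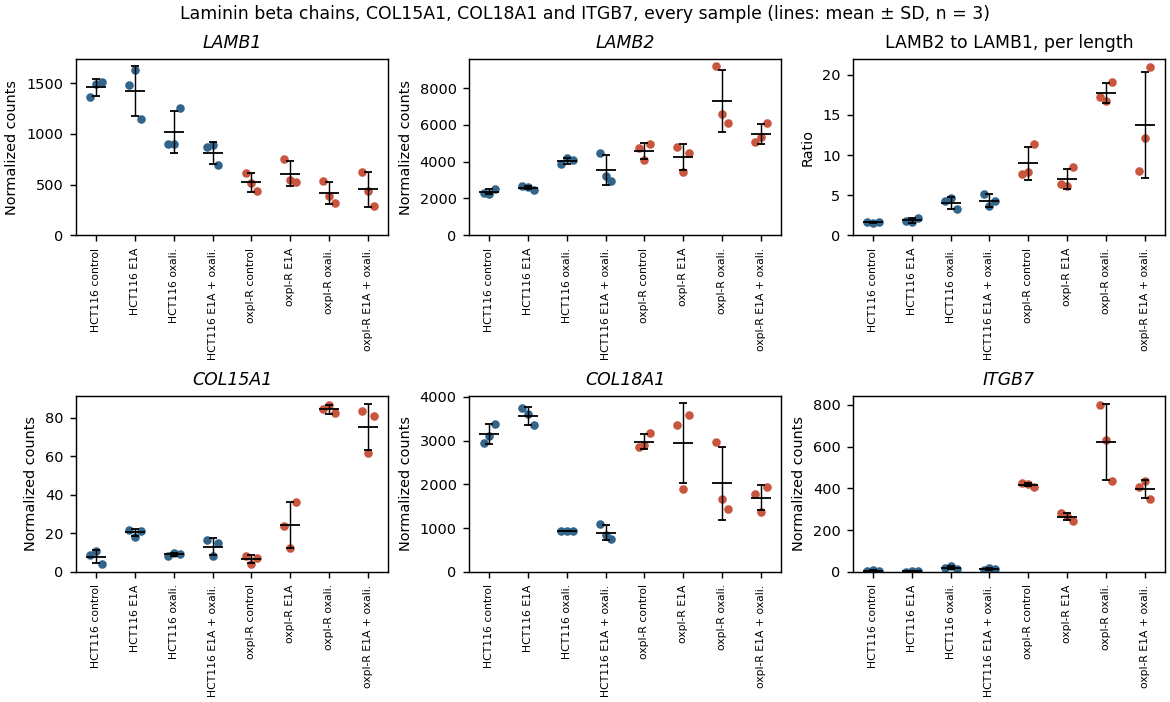
Normalized counts of LAMB1, LAMB2, COL15A1, COL18A1 and ITGB7 and the per-length ratio of LAMB2 to LAMB1 (y axes) in every sample, by group (x axis; blue HCT116, red HCT116 oxpl-R), with mean ± SD (n = 3). COL15A1 lies between 61.6 and 86.7 in oxpl-R samples on oxaliplatin and at most at 36.3 elsewhere, and COL18A1 is at most 1092 in the 6 HCT116 samples on oxaliplatin.

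E1A alone changed members in HCT116 cells: 9 of 78 rose and 2 fell (2.91% and 6.59% of all genes). The collagens COL1A1, COL4A3, COL6A2, COL12A1, COL13A1 and COL16A1 and the integrins ITGA1, ITGA7 and ITGB3 rose, and ITGB1 and ITGB4 fell. No laminin of 11 tested was called by edgeR (lowest adjusted p = 0.0547). COL12A1 rose from 592, 671 and 709.9 to 1227, 1314 and 872 normalized counts (log2FC 0.74 ± 0.14 (SE), adjusted p = 0.00152), and COL16A1 from 63.6, 64.9 and 75.2 to 119.7, 153 and 143 (log2FC 0.99 ± 0.20 (SE), adjusted p = 0.00299). ITGB3, the beta chain of the vitronectin receptor, rose from 8.81, 1.97 and 12.5 to 31.98, 62.9 and 38.2 (log2FC 2.47 ± 0.50 (SE), adjusted p = 0.00287). The groups did not overlap in these 3 genes. ITGB1 had 12836, 13188 and 9099 in control and 7994, 7658 and 9374 in E1A samples (log2FC -0.54 ± 0.13 (SE), adjusted p = 0.0109), and the groups overlapped. None of the 11 calls held in every alternative setting: all were lost with the replicate number as a block, although the numbers did not pair these samples. The count became 18 without replicate 3 of HCT116 E1A, 4 without replicate 1 of HCT116 control and 5 without its replicate 2.

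In oxpl-R cells no member of 79 was called for E1A by edgeR (0.0755% of all genes were) or DESeq2, and 14 had an unadjusted p below 0.05. COL15A1 had 8.22, 4.04 and 7.37 normalized counts in control and 23.7, 12.3 and 36.3 in E1A samples, and ITGB7 had 424, 419 and 409 and 279.6, 267 and 245, both with groups apart and adjusted p = 0.681 and 0.453. The difference of the E1A response between the lines was called by edgeR for none of 80 members (0.0164% of all genes) and by DESeq2 for none, with an unadjusted p below 0.05 for 5. COL12A1, for instance, had a difference of -0.64 ± 0.27 (log2, adjusted p = 1). A difference in the number of calls between the lines was therefore not a tested difference in response.

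On top of oxaliplatin, no member of 75 was called for E1A in HCT116 cells by edgeR (0.0246% of all genes were) or DESeq2, and 1 had an unadjusted p below 0.05; without both libraries that stood apart the count was again 0. In oxpl-R cells 1 of 75 was called (0.638% of all genes): COL1A2 had 1.003, 1.11 and 4.69 normalized counts with oxaliplatin and 2.57, 10.4 and 381 with E1A + oxaliplatin (log2FC 5.80 ± 1.30 (SE), adjusted p = 0.0484). The call of COL1A2 was lost in 4 of 11 alternative settings, and DESeq2 called none. Among the 4 were leaving out replicate 3 of E1A + oxaliplatin and replicate 1 of oxaliplatin. The count was 0 without replicate 1 of oxpl-R oxaliplatin and 2 without its replicate 2 or 3. ITGB4 had 28902, 26562 and 22741 and 18388, 16713 and 17497 (log2FC -0.57 ± 0.21, adjusted p = 0.387), and COL17A1 had 3479, 3066 and 2272 and 2091, 1967 and 1687 (log2FC -0.61 ± 0.21, adjusted p = 0.344). Neither passed the test, although the groups did not overlap.

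ITGB1 varied strongly between replicates. In all 4 oxpl-R groups replicate 3 was the highest, with 8322, 5469 and 17252 normalized counts in control, 5445, 4748 and 14858 in E1A, 9939.6, 5500.0 and 21805 in oxaliplatin and 4772, 5627 and 11032 in E1A + oxaliplatin samples. In HCT116 oxaliplatin samples it had 4030.5, 6178 and 9926, and ITGAV, a partner of ITGB1, ITGB5 and ITGB8, had 704, 757 and 1483. Replicate 3 of that group, one of the libraries closest to another group, was the highest in both genes. ITGB1 was called in none of the 4 line comparisons.

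Proteins that make, bind or cleave the matrix were counted in the same fits. These lists were incomplete, because some of their genes were absent from the count table and so were not tested. Absent were 8 other matrix proteins, 1 other matrix receptor, 1 collagen processing gene, 6 adhesion complex genes and 4 proteases or inhibitors. In the untreated line comparison, of 27 other matrix proteins tested 5 were higher and 2 lower, of 15 other matrix receptors 4 and 3, of 28 collagen processing enzymes and chaperones 7 and 5, of 31 genes of the integrin adhesion complex 9 and 6, and of 28 matrix proteases and inhibitors 9 and 3, beside 14.1% and 14.2% of all genes. The largest among them were NEDD9, a scaffold of focal adhesions (log2FC 8.66, adjusted p = 7.9e-09), MMP13, a collagenase (mean normalized counts of 0.980 in HCT116 and 52.9 in oxpl-R control samples, adjusted p = 2.6e-05), and LOXL4, a collagen crosslinking oxidase (log2FC 4.77, adjusted p = 1.3e-09). DST, which links ITGB4 to keratins in hemidesmosomes, was lower (log2FC -1.24, adjusted p = 1.7e-05).

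With oxaliplatin, 34 genes of these lists rose and 13 fell in HCT116 cells, out of 128 tested (13.1% and 10.2% of all genes), and 8 rose and 1 fell of 131 in oxpl-R cells (2.02% and 2.1% of all genes). The tetraspanin CD82, which associates with integrins, rose in both (log2FC 1.02 and 1.87), as did the syndecan SDC4, a co-receptor of integrins (log2FC 0.96 and 1.78). The hyaluronan receptor HMMR fell in both (log2FC -1.86 and -2.22). By the interaction term, 1 of 131 genes of these lists had a higher and 4 a lower log2 response in oxpl-R cells (2.44% of all genes passed). Of the 28 collagen processing genes and chaperones tested, 3 passed, all lower. They were the chaperone SERPINH1 (log2 -1.03, adjusted p = 0.0372), LOXL3 (log2 -1.85, adjusted p = 0.0281) and P3H4 (log2 -0.98, adjusted p = 0.0271).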

How the data were processed

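RNA of 24 samples (8 groups of 3) was sequenced on an Illumina NovaSeq X in paired-end mode. Per the labels and the study's methods, the authors trimmed reads with Trimmomatic, quantified transcripts of GRCh38 with Salmon 1.6.0 and used tximport for gene-level sums. The deposited values are estimated counts per gene without normalization; 15.9% to 30.4% of values per sample were not whole, and all were rounded. The count table ends at SETP6 and its incomplete last line was left out. It held 33113 genes, against 37967 in the second deposited table. Genes found only in the second table entered neither the main tests nor the shares of all genes. A second deposited table is named TPM, but its columns sum to between 28004261 and 42613322, so it was read as length-scaled estimated counts and served as an alternative.

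Members were the symbols of collagen, laminin and integrin chains; they, the gene lists and the comparisons were chosen with earlier results of these data known. Tests were run with edgeR 4.0.16 under R 4.3.3 (TMM scaling; quasi-likelihood test on the groups compared; genes without any count in them left out; Benjamini-Hochberg adjustment across the remaining genes), and DESeq2 1.42.0 served as an alternative. SEs were derived from the fitted log2FC and F. Comparisons were the lines within each treatment, oxaliplatin or E1A within each line, and 2 interactions; oxaliplatin in E1A-induced cells was added after seeing the data. Other alternatives were RLE scaling, edgeR's expression filter, 1 fit of all samples, a replicate block, leaving out each sample, and |log2FC| above 1. The test was checked on simulated data. Any member with at least 10 counts on average may be named. Values per sample are given for some of the largest called changes, and not for all of them in every comparison. They are also given for further members where a chain's partner is described (these were chosen after their values were seen). From other lists at most 3 genes per direction are named. Same-numbered samples deviated together (all correlations above 0.1) in the comparison of lines on oxaliplatin and in that of oxaliplatin in E1A-induced oxpl-R cells. The labels name biological replicates, without saying whether they were separate cultures; p-values measure the spread between these samples. Sequences are from RefSeq (GRCh38.p14), where 58 of 82 members matched, and positions from GENCODE on GRCh38. Totals per sample set the precision, and a member under 10 counts on average is too shallow to describe. Some genes that enter the tests and counts are not reported here.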

Additional observations from a re-analysis of the deposited data

Results flagged for a closer look

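COL15A1 was picked out because its response to oxaliplatin differed between the lines by the test of the difference itself (edgeR, interaction of line and oxaliplatin): the log2 response was 3.43 higher in HCT116 oxpl-R than in HCT116 cells, with adjusted p = 0.011. Normalized counts averaged 7.93 ± 3.41 and 9.06 ± 0.5997 (SD, n = 3) without and with oxaliplatin in HCT116 cells, and 6.54 ± 2.21 and 84.4 ± 2.301 in oxpl-R cells. All 3 treated oxpl-R samples were above all others of the comparison. The call was lost on the length-scaled table and without replicate 2 of HCT116 control.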

How the results depend on the processing

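Over 153 called results of members with at least 10 counts, none of 1833 alternative values changed sign and 330 no longer passed the test. Counts of called members beyond 1.5 times the reported one were as follows. With |log2FC| above 1 the counts were 18 of 32 for the untreated lines, 11 of 21 for oxaliplatin in HCT116 cells, 2 of 11 for E1A in HCT116 cells, and 5 of 13 and 3 of 5 for oxaliplatin with E1A in HCT116 and oxpl-R cells. Fitting all 24 samples together gave 19 against 12 for oxaliplatin in oxpl-R cells, 1 against 11 for E1A in HCT116 cells, and 2 against 1 for the interaction of line and oxaliplatin. The length-scaled table gave 4 of 11 for E1A in HCT116 cells, 4 of 13 for oxaliplatin with E1A in HCT116 cells, and 0 against 1 for E1A on oxaliplatin in oxpl-R cells, where DESeq2 and the expression filter also gave 0. DESeq2 gave 5 and the expression filter 2 for the interaction of line and oxaliplatin, and DESeq2 gave 8 for oxaliplatin with E1A in oxpl-R cells. The causes were not tested.

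With the replicate number as a block, 25 members instead of 12 were called for oxaliplatin in oxpl-R cells, 0 instead of 11 for E1A in HCT116 cells, and 16 instead of 5 for oxaliplatin with E1A in oxpl-R cells; elsewhere the block kept the count within 1.5 times. Same-numbered samples correlated by 0.0848, 0.465 and 0.552 in the first of these comparisons, where each oxpl-R oxaliplatin sample correlated best with its own number, and by -0.167, -0.141 and -0.220 in the second, so that the samples there share only a number.

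Leaving out 1 sample at a time, counts ran from 24 to 36 for the untreated lines, 17 to 24 on oxaliplatin, 10 to 26 on E1A and 17 to 24 on E1A + oxaliplatin. For oxaliplatin they ran from 11 to 36 in HCT116 and 7 to 19 in oxpl-R cells, and with E1A from 2 to 31 and 3 to 15. For E1A they ran from 4 to 18 in HCT116 cells and from 0 to 2 on oxaliplatin in oxpl-R cells, and from 0 to 6 for the interaction of line and oxaliplatin. The counts of 0 stayed 0.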
